A study of Mus musculus with 6 samples.

Results

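The genes described here were 42 mouse genes of the interferon system, listed by symbol for their known roles as interferon receptors, their signal transducers or genes that interferon induces. Of these, 39 had a probe set that named 1 gene only, out of 19938 such genes on the array, and 24 lay high enough to be tested, out of 11424 tested genes. The remaining 15 lay under the array median and are given by level. Isg15 and Gbp2 shared their probe sets with another gene, Ifi44 was not named in the annotation used here, and these 3 genes have no value. The list of 42 was drawn up with earlier results of these data known.

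The samples were N2A cells, an established mouse neuroblastoma line, grown in DMEM with 10% fetal bovine serum. One group was transiently transfected with a non-targeting control vector and the other with a vector expressing a short hairpin RNA against Pax6, a transcription factor of eye and brain development. Both groups therefore carried plasmid DNA and a hairpin RNA, with 1.5 µg of vector delivered by FuGENE 6, and RNA was taken 3 days later. The study's methods call the 3 samples of each group biological replicates, and no interferon treatment or untransfected sample was part of the design. Transient transfection leaves some cells without vector, so each value is an average over a mixed culture. Fewer cells of a type and less RNA per cell cannot be told apart in such bulk RNA.

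Interferons are secreted proteins that cells make when sensors such as RIG-I (Ddx58) and MDA5 (Ifih1) detect foreign RNA. Type I interferon binds IFNAR1 and IFNAR2, and type II interferon binds IFNGR1 and IFNGR2. Kinases on these receptors activate STAT proteins. A complex that holds STAT2 and IRF9 binds the interferon-stimulated response element, and a second DNA element of the pathway is the gamma-activated site. The induced genes encode enzymes, sensors and membrane proteins that limit viruses, together with brakes such as USP18.

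The letters of these elements are shown for the members past the threshold that hold them, for the best known induced genes and for Bst2. Promoter windows of RefSeq (build GRCm38.p6), reaching from 250 bases before to 50 bases after a gene start, were found for 34 of the 42 members and searched on both strands. The core of the interferon-stimulated response element, GAAANNGAA, was in a window of 18 of the 34 genes (52.9%), against 2638 of 27025 genes in the whole table (9.76%). The gamma-activated site, TTCNNNGAA, was in 10 of the 34 (29.4%) and in 9.55% of all genes. Members were listed for being interferon genes, so these shares describe the list. In the stretches printed next, read 5′ to 3′ on the strand of the gene, capitals mark the core or its reverse complement, with overlapping matches joined. A match is a run of letters and was not tested as a binding site.
Ddx58: ctgaggcagtTTCGATTTCctatggccag
Isg15: gtagGAAAAGGAAACCGAAACAGAAaata
Ifit1, far stretch: tgcaggcTTCAGTTTCACTTTCcagtctc
Ifit1, near stretch: cagtctcagtTTCAGTTTCtcactgctga
Bst2: attccagGAAAATGAAACTGAAaggctgc
The Ddx58 stretch lay at chr4:40239804-40239832 on the minus strand, and its match began 3 bases after the gene start. The Isg15 stretch lay at chr4:156200872-156200900 on the minus strand, with 3 overlapping matches that began 78 bases before the start. The Ifit1 stretches lay at chr19:34640773-34640801 and chr19:34640795-34640823 on the plus strand, with first matches 109 and 84 bases before the start. The Bst2 stretch, chosen after the values were seen because this gene passed in the paired fit, lay at chr8:71537581-71537609 on the minus strand, 130 bases before the start. Rsad2, also added by that fit, held a core 119 bases before the start, which is not printed. The windows of Irf9, Ifnar1 and Oasl1, added by the same fit, held no core. Usp18 and Parp9 had no entry in the promoter table. The windows of Irf7, Oasl2 and Lgals3bp did not hold the 9 letters of the core, which says nothing of sites elsewhere.

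Pax6, the targeted gene, was lower on every knockdown array. Its log2 value was 8.79, 8.82 and 8.81 on control arrays 1 to 3, and 8.48, 8.30 and 8.50 on the knockdown arrays of the same numbers. The log2 difference, knockdown minus control, was -0.38 (SE 0.071, limma adjusted p = 0.0382, n = 3 per group), so the reduction of Pax6 transcript was partial. Of 12 neuroblastoma and neuronal marker genes with a value, all 12 passed the level filter. All 10 macrophage and all 7 measured lymphocyte markers lay under it. Of 8 fibroblast and endothelial markers, Col1a1, Col1a2 and Pecam1 lay above it on all 6 arrays and were not called, and the mean log2 level of that list ran from 7.18 to 7.24 in control and from 7.15 to 7.24 in knockdown. The mean log2 level of the macrophage list ran from 6.36 to 6.39 over the control arrays and from 6.26 to 6.45 over the knockdown arrays. Among the 12 neuronal markers 4 were called lower, namely Dbh, Chgb, Isl1 and Chga, against 3.88% of all tested genes. None was called higher and 8 were not called. The log2 difference was below 0 for 8 and above 0 for 4. Dbh had the largest fall, at -1.08, while Tubb3 separated upward at 0.12 without a call. The mean level of the neuronal list ran from 11.42 to 11.47 in control and from 11.18 to 11.27 in knockdown. The part of this shift in the interferon values was not tested. Among 5 reference genes with a value, Actb, Tbp, Ppia and Idh1 differed by between -0.01 and 0.03 and were not called. Hprt was higher by 0.26 (SE 0.058) and passed 10% FDR (limma adjusted p = 0.0572), with every knockdown array above every control array.

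The members that passed the test were all lower in the Pax6 knockdown. At a false discovery rate (FDR) of 10%, 6 of the 24 tested members were lower, 0 were higher and 18 did not pass. Over all tested genes 3.88% were called lower and 2.79% higher. The 6 were Usp18, Oasl2, Irf7, Ddx58, Lgals3bp and Parp9, with falls between 0.31 and 0.61 on the log2 scale. At an unadjusted p under 0.05 the counts were 10 lower and 0 higher, where 9.45% of all tested genes were lower and 9.33% higher. The log2 difference was below 0 for 20 of the 24 members, against 5079 of the 11424 tested genes. The median difference of the members was -0.16, where all tested genes had a median of 0.02. Every knockdown array lay below every control array for 13 of the 24, against 11.7% of all tested genes, and the reverse held for 0 members, against 13.9% of all tested genes. Because the members were chosen with earlier results of these data known, these counts describe the list and are no independent support. The filter asked for a value above the array median on 3 of the 6 arrays. Irf7 was above it on all 3 control arrays and 1 knockdown array, and Rsad2 on 3 and 2, so these genes entered mainly through the control group.

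**Figure D1:**
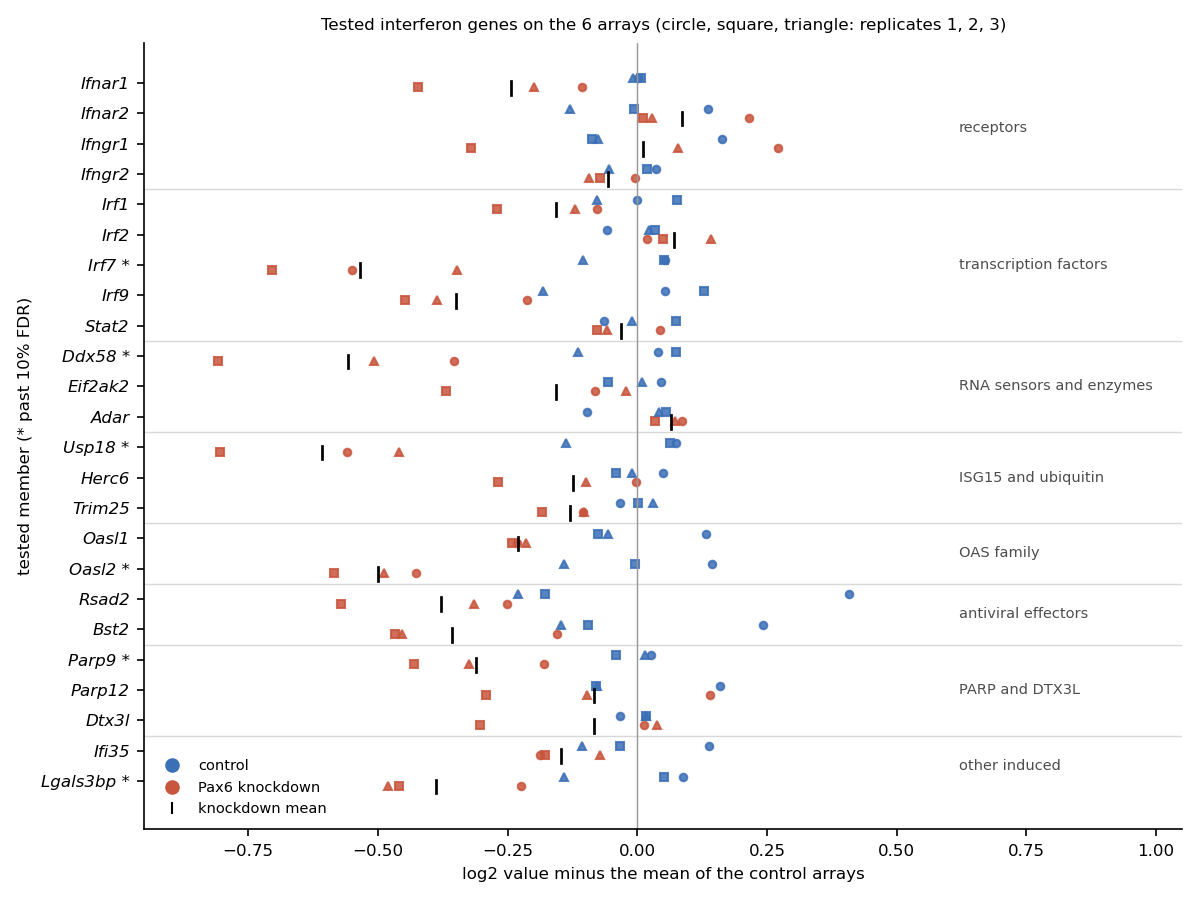
Each of the 24 tested members on the 6 arrays, as the log2 value minus the mean of the 3 control arrays (x axis), grouped by role (y axis); blue points are control arrays, red points Pax6 knockdown arrays, point shapes replicate numbers, and the black line the knockdown mean. The 6 members with an asterisk passed 10% FDR, and knockdown replicate 2 (red squares) is the lowest of the 6 arrays for 18 members.

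The number of calls changed with the arrays used, among the members and over all tested genes. Knockdown replicate 2 was the lowest of the 6 arrays for 18 of the 24 members, and among the called members for 5 of 6. The same share over all tested genes was not counted. The median of all tested genes, minus the control mean, was also lowest on that array. It was -0.05 there, and 0.06 and 0.03 on knockdown replicates 1 and 3. For the tested members these medians were -0.31 on knockdown replicate 2, and -0.11 on both others. The number of members called lower was 1 without control replicate 1 (Oasl2), 0 without control replicate 2, 3 without control replicate 3 (Irf7, Oasl2 and Usp18) and 1 without knockdown replicate 3 (Irf7). It was 7 without knockdown replicate 1 and 6 without knockdown replicate 2, the same 6 as with all arrays. Over all tested genes the share called lower, 3.88% as reported, was 1.16%, 0.376% and 1.12% without control replicates 1, 2 and 3. It was 3.89%, 4.07% and 0.429% without knockdown replicates 1, 2 and 3. The share called higher, 2.79% as reported, was 0.455%, 0.0700% and 0.271% without the control replicates in that order. Without the knockdown replicates it was 1.37%, 7.18% and 0.0613%. No member was called higher in any of these 6 fits, and the median log2 difference of the members stayed between -0.20 and -0.12.

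Control and knockdown arrays with the same replicate number deviated together from their group means, so the numbers were taken as pairs. With the replicate number as a block, 11 of the 24 members were lower and 0 higher, where 8.91% of all tested genes were lower and 8.96% higher. The 5 members added by the block were Irf9, Ifnar1, Oasl1, Bst2 and Rsad2. Within the pairs, 17 of the 24 members were lower on the knockdown array in all 3 pairs (21.3% of all tested genes), and 2 members, Ifnar2 and Irf2, were higher in all 3 (28.4%). The falls were deepest in pair 2. The median member difference was -0.12 in pair 1, -0.32 in pair 2 and -0.09 in pair 3, whereas the medians over all tested genes were 0.04, -0.02 and 0.03. Pair 2 held the lowest of the 3 differences for 20 of the 24 members, pair 1 for 4 and pair 3 for 0. Over all tested genes this share was not counted, and pair 2 had the lowest median there too.

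**Figure D2:**
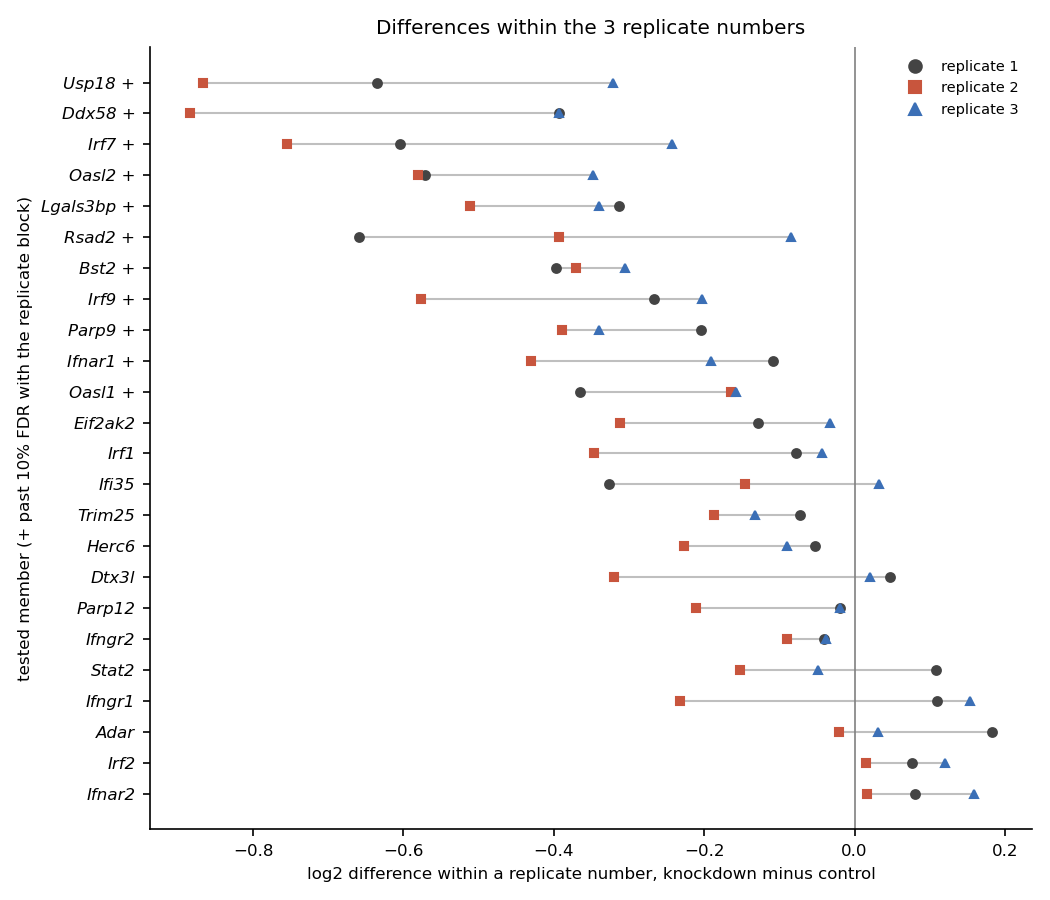
Log2 difference within each replicate number, knockdown minus control (x axis), for the 24 tested members ordered by their mean difference (y axis); circles, squares and triangles are replicates 1, 2 and 3, and + marks the 11 members past 10% FDR with the replicate block. Most squares lie at the left end of their line, and 17 members have all 3 points below 0.

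The 4 receptor subunits gave no call, and their median difference was -0.02. Ifnar2, 1 chain of the type I receptor, read 11.94, 11.79 and 11.67 in control and 12.02, 11.81 and 11.83 in knockdown, and the groups overlapped (log2 difference 0.09, 95% confidence interval -0.12 to 0.29, limma adjusted p = 0.698). Ifngr1, which binds interferon gamma, read 9.33, 9.08 and 9.09 in control and 9.44, 8.85 and 9.25 in knockdown. Its difference was 0.01 (limma adjusted p = 0.980), and with 3 arrays per group its interval was wide, from -0.33 to 0.35. Ifngr2, the other chain of the interferon gamma receptor, read 12.58, 12.56 and 12.49 in control and 12.54, 12.47 and 12.45 in knockdown (difference -0.06, interval -0.19 to 0.08, limma adjusted p = 0.703).

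Ifnar1, the other chain of the type I receptor, stood apart from these. Its 3 control arrays were almost equal at 10.29, 10.30 and 10.28, and the knockdown arrays read 10.18, 9.87 and 10.09, so that no knockdown array reached the control range. The log2 difference was -0.24 (SE 0.086), which did not pass (limma adjusted p = 0.174) and passed with the replicate block (adjusted p = 0.0784). In RefSeq's gene order the receptor genes Ifnar2, Ifnar1 and Ifngr2 are neighbours, with only Il10rb between the first pair. Whether the differences of these neighbours differ from each other was not tested.

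Of the 5 transcription factors only Irf7 passed. IRF7 drives the amplification of type I interferon responses and is itself interferon induced. Irf7 read 8.04, 8.04 and 7.88 in control (7.99 ± 0.091, SD, n = 3) and 7.44, 7.29 and 7.64 in knockdown (7.46 ± 0.18, SD, n = 3). The groups did not overlap, and the lowest control array was replicate 3 while the highest knockdown array was also replicate 3. Its log2 difference was -0.53 (SE 0.098, limma adjusted p = 0.0371), and its signal fell by 30.9%. It lost its call without control replicate 1 (adjusted p = 0.133) or control replicate 2 (adjusted p = 0.178).

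Irf9, the DNA-binding partner of the STATs, moved less far. It read 9.50, 9.57 and 9.26 in control and 9.23, 9.00 and 9.06 in knockdown, with only 0.031 between control replicate 3 and knockdown replicate 1. The difference of -0.35 (SE 0.099) narrowly missed the threshold (limma adjusted p = 0.107) and passed with the block (adjusted p = 0.0393). Stat2, the other measured subunit of that complex, read 10.45, 10.59 and 10.50 in control and 10.56, 10.44 and 10.45 in knockdown, and the groups overlapped (difference -0.03, interval -0.18 to 0.12, limma adjusted p = 0.866). Irf1, an activator induced by interferon gamma, read 9.12, 9.19 and 9.04 in control and 9.04, 8.85 and 9.00 in knockdown. Its groups were separated by 0.0017, and the difference of -0.16 (SE 0.075, limma adjusted p = 0.308) did not pass. A second Irf1 probe set of lower signal differed by 0.09, in the opposite direction. Irf2, which competes with IRF1 for the same sites, read 10.74, 10.83 and 10.82 in control and 10.82, 10.85 and 10.94 in knockdown (difference 0.07, interval -0.08 to 0.22, limma adjusted p = 0.636).

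Of the genes that sense or edit RNA, Ddx58 fell. Ddx58 encodes RIG-I, a sensor of viral RNA in the cytoplasm. It read 9.37, 9.40 and 9.21 in control (9.33 ± 0.10, SD, n = 3) and 8.97, 8.52 and 8.82 in knockdown (8.77 ± 0.23, SD, n = 3). The groups did not overlap, and knockdown replicate 2 was the lowest array. The log2 difference was -0.56 (SE 0.12, limma adjusted p = 0.0510), and its signal fell by 32.0%. The call was lost without any 1 of the control arrays (adjusted p = 0.162, 0.202 and 0.126 for replicates 1, 2 and 3), without knockdown replicate 3 (adjusted p = 0.169), and with no filter on low values, when all genes with a probe set were tested.

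The other sensors gave no call. Eif2ak2, the kinase PKR that stops translation on double-stranded RNA, differed by -0.16 (limma adjusted p = 0.439), and Adar, which edits adenosine in double-stranded RNA, by 0.06 (adjusted p = 0.686). Dhx58, which encodes LGP2, a relative of RIG-I, lay under the filter and was not tested. It read 7.36, 7.28 and 7.35 in control and 7.09, 6.59 and 6.92 in knockdown, so its groups separated downward at low signal. Ifih1, the MDA5 gene, also lay under the filter, at 6.16 ± 0.072 in control and 6.13 ± 0.019 in knockdown (SD, n = 3).

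Usp18 had the deepest fall of the 24 tested members. USP18 removes ISG15 from proteins and blocks the type I receptor, which makes it a brake on the response. Its values were 9.61, 9.60 and 9.40 in control (9.53 ± 0.12, SD, n = 3) and 8.98, 8.73 and 9.08 in knockdown (8.93 ± 0.18, SD, n = 3), with a gap of 0.32 between the groups. The log2 difference was -0.61 (SE 0.10, limma adjusted p = 0.0289), and its signal fell by 34.4%. It lost the call without control replicate 1 (adjusted p = 0.116), control replicate 2 (adjusted p = 0.155) or knockdown replicate 3 (adjusted p = 0.101). Herc6, the mouse ligase for ISG15, differed by -0.12 (adjusted p = 0.466) and Trim25, a ubiquitin ligase that acts on RIG-I, by -0.13 (adjusted p = 0.281). Trim25 had no overlap between groups, and neither gene passed.

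**Figure D3:**
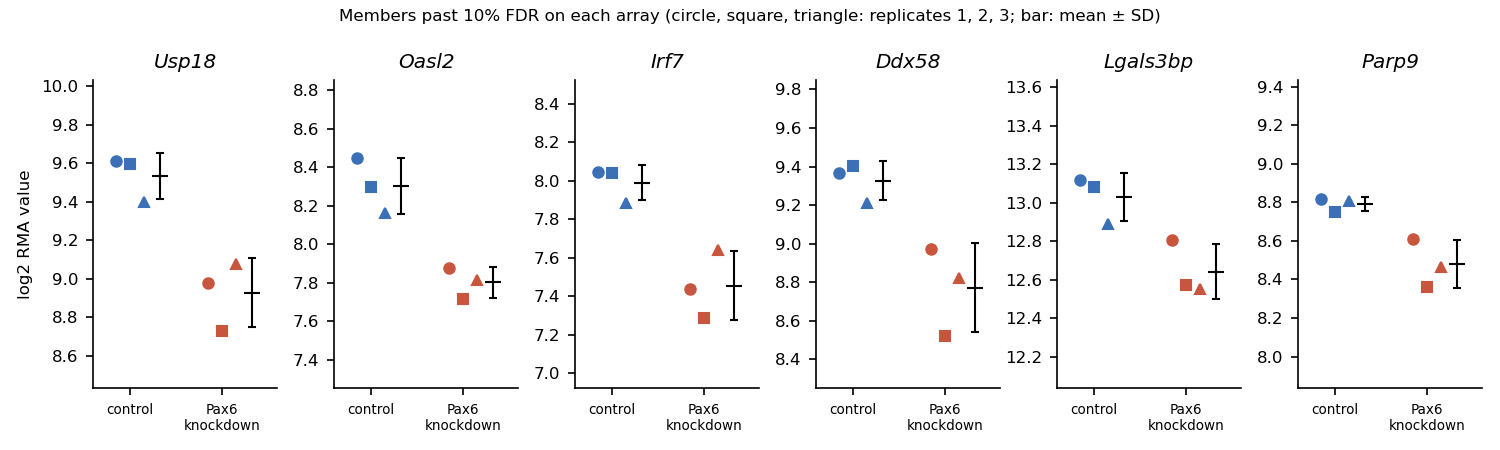
Log2 RMA value (y axis) of the 6 members past 10% FDR on the 3 control arrays (blue) and the 3 Pax6 knockdown arrays (red), with circles, squares and triangles for replicates 1, 2 and 3 and a bar for mean ± SD; every panel spans the same range of log2 units around its own centre. In every panel the lowest blue point lies above the highest red point, by the least in Lgals3bp.

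In the OAS family, whose classical members make the second messenger that activates RNase L, the tested genes were the OAS-like genes Oasl2 and Oasl1, which are next to each other in RefSeq's gene order. Oasl2 read 8.45, 8.30 and 8.16 in control (8.30 ± 0.14, SD, n = 3) and 7.88, 7.72 and 7.81 in knockdown (7.80 ± 0.080, SD, n = 3). The knockdown arrays lay close together and all below the lowest control array, replicate 3. The log2 difference was -0.50 (SE 0.086, limma adjusted p = 0.0302), and its signal fell by 29.3%. It lost its call without control replicate 2 (adjusted p = 0.155) or knockdown replicate 3 (adjusted p = 0.138). Oasl1, which restrains IRF7 translation, read 9.49, 9.28 and 9.30 in control and 9.12, 9.11 and 9.14 in knockdown, again without overlap. Its difference of -0.23 (SE 0.072) did not pass (limma adjusted p = 0.135) and passed with the block (adjusted p = 0.0640). Oas1a, Oas2 and Oas3 lay under the filter with overlapping groups and mean differences of -0.08, -0.07 and -0.09.

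Of the 7 antiviral effectors 5 lay under the filter and neither of the others was called. Bst2, the membrane tether that holds budding virus on the cell, read 10.29, 9.95 and 9.90 in control and 9.89, 9.58 and 9.59 in knockdown. The groups only just separated, with 0.0066 between knockdown replicate 1 and control replicate 3, but the differences within the pairs were even, at -0.40, -0.37 and -0.31. The difference of -0.36 (SE 0.13) did not pass (limma adjusted p = 0.172) and passed with the block (SE 0.054, adjusted p = 0.0134).

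Rsad2, the viperin gene, read 8.47, 7.88 and 7.83 in control and 7.81, 7.49 and 7.75 in knockdown, with control replicate 1 far above the rest. Its difference was -0.38 (SE 0.17, limma adjusted p = 0.283), and it passed with the block (adjusted p = 0.0588) although the pairs ran from -0.66 to -0.08. The classical induced genes Ifit1, Ifit2, Ifit3, Mx1 and Mx2 lay under the filter on all 6 arrays. Their control means were 6.40, 6.24, 5.78, 7.14 and 7.12, in that order, and their groups overlapped. Mx1 had the largest of their mean differences, at -0.32, while those of Ifit1 and Ifit3 were above 0, at 0.09 and 0.05.

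The PARP9 and DTX3L proteins form a complex of an ADP-ribosyltransferase-like protein and a ubiquitin ligase, and their genes are neighbours. Parp9 read 8.82, 8.75 and 8.81 in control (8.79 ± 0.035, SD, n = 3) and 8.61, 8.36 and 8.47 in knockdown (8.48 ± 0.13, SD, n = 3), without overlap. Its log2 difference was -0.31 (SE 0.076, limma adjusted p = 0.0741), a change in signal of -19.4%. Dtx3l read 8.77, 8.81 and 8.82 in control and 8.81, 8.49 and 8.84 in knockdown, so that only knockdown replicate 2 stood below the control range. Dtx3l differed by -0.08 (interval -0.30 to 0.14, limma adjusted p = 0.727). Parp12 differed by -0.08 as well (adjusted p = 0.789), and Parp14, the gene on the other side of Dtx3l, lay under the filter at 6.57 ± 0.016 in control and 6.39 ± 0.090 in knockdown (SD, n = 3) without overlap. The Parp9 call was lost without any 1 control array (adjusted p = 0.193, 0.221 and 0.217 for replicates 1, 2 and 3), without knockdown replicate 3 (adjusted p = 0.238), and with no filter, a 25th percentile filter or a filter on variance.

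Lgals3bp, which encodes a secreted galectin-binding glycoprotein, fell. It read 13.12, 13.08 and 12.89 in control (13.03 ± 0.12, SD, n = 3) and 12.81, 12.57 and 12.55 in knockdown (12.64 ± 0.14, SD, n = 3). Control replicate 3 and knockdown replicate 1 were the nearest arrays, 0.08 apart. The log2 difference was -0.39 (SE 0.094, limma adjusted p = 0.0738), a change in signal of -23.6%. It lost its call without control replicate 1, 2 or 3 (adjusted p = 0.201, 0.265 and 0.126) or knockdown replicate 3 (adjusted p = 0.256), and under the same 3 filters as Parp9. Ifi35, a partner of NMI in innate signalling, differed by -0.15 with overlapping groups (adjusted p = 0.375).

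The last members lay under the filter. Xaf1, an induced gene linked to cell death, separated downward at 7.05 ± 0.14 in control and 6.76 ± 0.089 in knockdown (SD, n = 3). Rtp4 and Gbp3 had overlapping groups and mean differences of -0.09 and -0.05, and Cxcl10, the chemokine that draws T cells, had 0.11. Of the 15 members under the filter, 12 had a lower mean in the knockdown and 3 a higher one, and Dhx58, Parp14 and Xaf1 were those whose groups did not overlap. The same shares among all genes under the filter were not counted, so these counts describe the 15 members only.

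**Figure D4:**
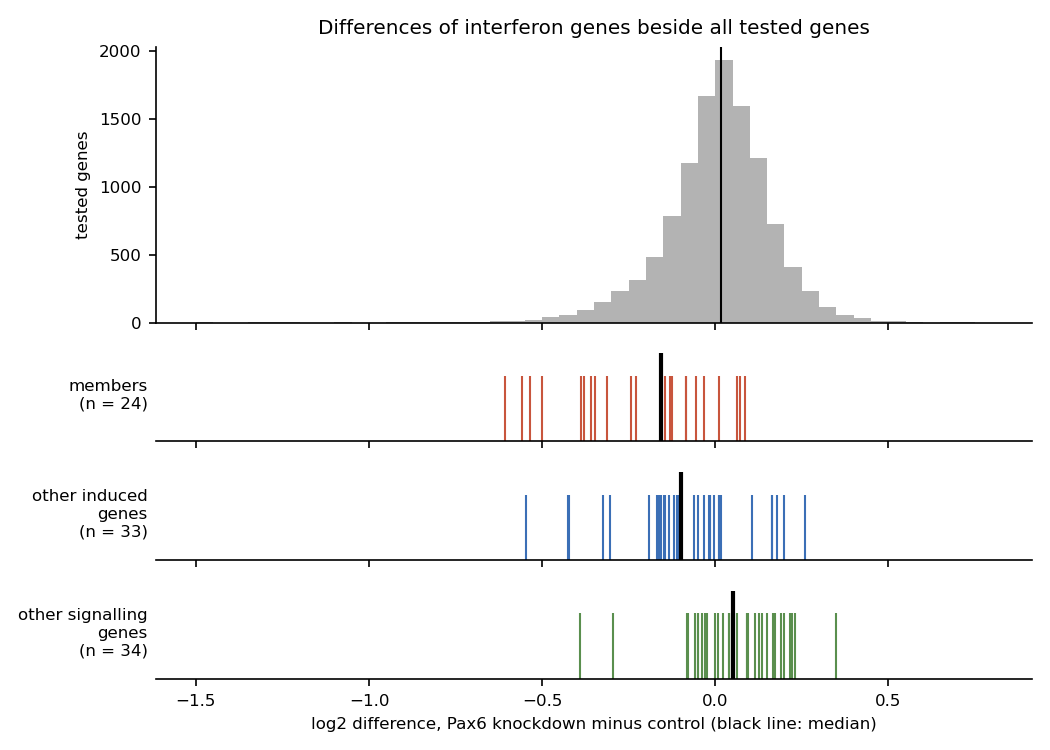
Log2 difference, knockdown minus control (x axis), as a histogram over the 11424 tested genes (top, y axis: number of genes) and as 1 line per gene for the 24 tested members, 33 other induced genes and 34 other genes of interferon signalling and sensing; black lines are medians. The members have a median of -0.16 and the other induced genes of -0.10, while the other signalling genes have a median of 0.05 and all tested genes of 0.02.

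A list of 116 further genes of the pathway was read in the same fit, of which 67 were tested, 4 were lower, 0 were higher and 63 did not pass, against 3.88% lower and 2.79% higher over all tested genes. Their median difference was 0.00. With the block 9 were lower and 6 higher, against 8.91% and 8.96%. At an unadjusted p under 0.05, 9 were lower and 9 higher, against 9.45% and 9.33%. The 4 were Unc93b1, Trim21, Ifitm3 and Shisa5. Unc93b1, the escort of nucleic acid-sensing Toll-like receptors to endosomes, read 10.79, 10.77 and 10.67 in control and 10.40, 10.37 and 10.29 in knockdown (difference -0.39, SE 0.063, limma adjusted p = 0.0259). Trim21, an intracellular antibody receptor, read 10.05, 9.96 and 9.86 in control and 9.56, 9.17 and 9.51 in knockdown (difference -0.55, SE 0.11, adjusted p = 0.0451). In both genes the groups were well apart.

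Ifitm3, which blocks virus entry at membranes, read 10.41, 10.20 and 10.00 in control and 9.79, 9.71 and 9.83 in knockdown (difference -0.43, SE 0.10, limma adjusted p = 0.0694). Shisa5 differed by -0.30 (SE 0.068, adjusted p = 0.0608). All 4 lost the call without control replicate 1 or 2 or knockdown replicate 3, and their adjusted p then reached at most 0.236. Trim21 and Shisa5 lost it also without control replicate 3, and Ifitm3 also without knockdown replicate 1.

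The longer list, also drawn up with earlier results of these data known, was counted by role, with no test between roles. Of 33 tested induced genes 3 were lower and 0 higher, 24 had a difference below 0, and the median was -0.10. Among the 34 tested genes of the other lists 1, Unc93b1, was lower and 0 higher, and 24 had a difference above 0. Over all 11424 tested genes 3.88% were called lower and 2.79% higher, and 5079 had a difference below 0 and 6341 above 0. The kinases, STATs and IRFs gave 8 tested genes with no call and a median of 0.08. Among them Jak2, a kinase of the interferon gamma receptor, read 9.17, 9.02 and 9.16 in control and 9.73, 9.28 and 9.39 in knockdown. Jak2 did not pass (difference 0.35, SE 0.12, limma adjusted p = 0.155) and passed with the block (adjusted p = 0.0343), in the direction opposite to the members.

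The suppressors, which include SOCS and PIAS proteins and phosphatases, gave 11 tested genes with no call. Socs2 had the lowest difference of them (-0.30, limma adjusted p = 0.121; with the block, adjusted p = 0.0317) and Ptpn11 the highest (0.22, adjusted p = 0.130; with the block, adjusted p = 0.0437). Socs1 and Socs3, the suppressors best known for interferon receptors, differed by -0.08 and 0.04. Of 11 genes for interferons and the receptor of interferon lambda with a value, 8 lay under the filter and 3 were tested without a call. The 3 were Ifnl2, Ifnz and Il10rb, at mean levels of 8.79, 7.89 and 10.64. Ifnb1, the interferon beta gene, lay between 5.38 and 6.26 on all 6 arrays, and Ifng between 7.10 and 7.13.

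**Figure D5:**
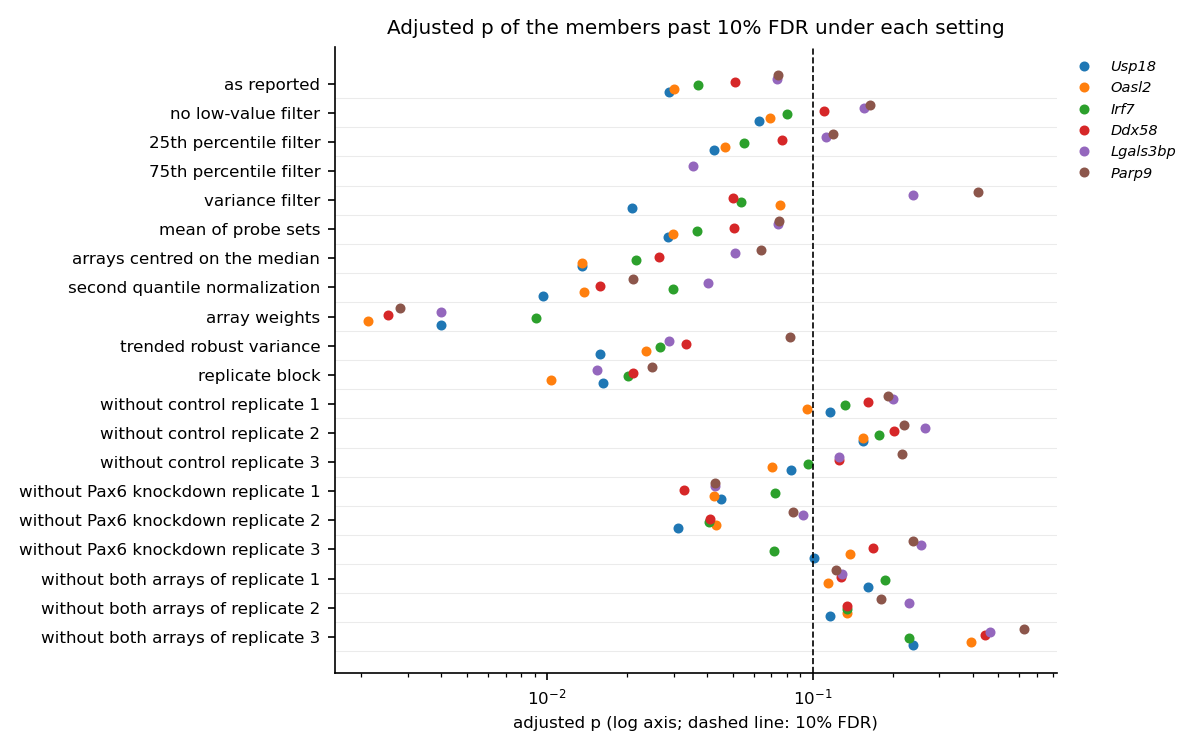
Limma adjusted p (x axis, log scale) of the 6 members past 10% FDR under the reported setting and each alternative (y axis), with the dashed line at 10% FDR. All 6 stay left of the line under the replicate block and under array weights, and all 6 lie right of it without control replicate 2 and without both arrays of any 1 replicate number.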

How the data were processed

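RNA of 6 N2A cultures (200 ng each) was hybridised to Affymetrix Mouse Gene 1.0 ST arrays. The deposited table held log2 values, 1 for each probe set, which the authors made by RMA with background correction and quantile normalization, a step that hides any change in total RNA. Software versions and the annotation build are not given in the sources used here. The table held 35556 probe sets, with array medians between 7.49 and 7.59, and its number of arrays limits the precision. Any pair of arrays shared at most 20 identical values.

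Gene names came from the platform annotation, checked against RefSeq identifiers. Of the probe sets, 21789 had 1 symbol, 1621 several and 12146 none. Per gene, the single-symbol probe set with the highest mean was kept, and genes above the array median on at least 3 arrays were tested, as the authors removed genes of low expression by a rule not given here.

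Knockdown and control were compared with limma 3.58.1 in R 4.3.3 (lmFit and eBayes, two-sided, Benjamini-Hochberg over 11424 genes, 10% FDR as in the study). The procedure was tested on simulated data whose noise was independent between arrays, with no effect of a replicate number. It was therefore not checked for arrays that deviate together by number. Members, lists and motifs were chosen with earlier results of these data known. All 42 members are accounted for, with array values for Pax6, members past the threshold, receptors and transcription factors. Pathway genes past the threshold are named, and array values of further genes were added after their values were seen. Deviations from group means correlated at 0.574, 0.323 and 0.230 within replicate numbers 1, 2 and 3, all over 0.1, and the numbers were treated as pairs. The labels do not say what a number marks, and control 3 with knockdown 2 reached 0.178. Alternatives changed the filter, probe set choice, scaling, variance model, array weights, pairing and the arrays used.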

Additional observations from a re-analysis of the deposited data

How the results depend on the processing

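The count of members called lower, 6 as reported, was 3 with no low-value filter, 2 with a 75th percentile filter that left 9 members, 10 after a second quantile normalization, 11 with array weights (whose estimation stopped short of convergence) and 11 with the replicate block. Calls over all genes moved too, from 3.88% lower and 2.79% higher to 0.888% and 0.341% with no filter, 8.64% and 8.84% with the 75th percentile filter, 6.85% and 5.26% after the second normalization, 14.0% and 23.1% with array weights, and 8.91% and 8.96% with the block. Leaving out arrays gave 0 to 7, and 0 without both arrays of any 1 replicate number. Without both arrays of replicate 1, 2 or 3, 0.963%, 0.516% and 0.0613% of all tested genes were called lower. The count called higher was 0, except 1 with array weights (Irf2, adjusted p = 0.0934). The median member difference moved by less than the spread of the array medians, which was 0.095, under all 19 alternatives. Among the 24 members, signs turned for Ifngr1, Stat2, Dtx3l and Parp12, none of them called in any setting. When arrays were left out, Ifngr1 (0.01 as reported) ran from -0.12 to 0.18, Stat2 (-0.03) from -0.10 to 0.030, Dtx3l (-0.08) from -0.15 to 0.034 and Parp12 (-0.08) from -0.19 to 0.021, and Dtx3l was 0.0089 with array weights. Beyond the members named with it, the replicate block changed no call of the 24. Over 29 single genes, 412 results kept their sign and their side of the threshold, 86 lost the call, 19 gained one and 12 turned in sign without a call. RMA compresses differences near background. The Ifit and Mx genes lay under the filter, no background level was defined, and an effect on their values was not tested.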
